A study of Mus musculus with 6 samples.

Results

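The uroplakin family comprises 6 mouse genes, Upk1a, Upk1b, Upk2, Upk3a, Upk3b and Upk3bl, and all 6 were measured among the 19505 genes named on the array. The members were taken by name, and the probe set of each gene was chosen by its mean level over all 6 arrays, the brightest counting. Each uroplakin has 1 probe set, so that choice had no effect. By the RefSeq gene table Upk1a lies on chromosome 7, Upk1b on 16, Upk2 on 9, Upk3a on 15, and Upk3b and Upk3bl side by side on 5. The family was picked with earlier results of the same knockout and control comparison known. Its differences are therefore given as a description, and the p-values beside them are no independent support.

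Uroplakins are membrane proteins named for the urothelium, the lining of the bladder and ureter. In its umbrella cells they pack into rigid plaques that cover the surface facing the urine and help to make it impermeable. Upk1a and Upk1b are tetraspanins, compact proteins that cross the membrane several times. Upk1a pairs with Upk2, and Upk1b pairs with Upk3a or Upk3b, before the proteins are assembled into plaques. Outside the urinary tract, Upk1b is also found in other lining epithelia and Upk3b is widely used as a marker of mesothelium.

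RNA came from 1 thyroid lobe of each of 6 mice of a C57BL/6J background. The 3 Foxe1flox/flox/Cre animals, called knockouts here, carry a tamoxifen-inducible Cre recombinase and floxed copies of Foxe1, a forkhead transcription factor of thyroid follicular cells. The 3 Cre controls carry Cre alone. Both groups were given tamoxifen (0.05 g/kg, into the abdomen, daily for 5 days) from an age of 6 to 8 weeks, and thyroids were taken 2 weeks after treatment. Cre and tamoxifen are thus shared by both groups. The promoter that drives Cre, and hence the cells in which Foxe1 was deleted, is not named in the labels, and neither is the sex of the animals. The comparison asks what loss of Foxe1 in the adult gland does to thyroid transcripts.

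Each array gave log2 values, in which 1 unit is a doubling, for 22206 probe sets, with medians between 5.62 and 5.69 and lower quartiles between 3.49 and 3.60. Foxe1 averaged 7.28 ± 0.29 on control arrays and 3.08 ± 0.23 on knockout arrays (SD, n = 3 each) and fell by 4.19 (limma adjusted p = 0.000442). Thyroglobulin, Tg, the defining product of the follicular cell, stood at 18.95 and 19.00, so thyroid was present on every array. With the limma adjusted p held under 0.05, calls were made for 75 probe sets (0.338%), 56 of them upward and 19 downward. The arrays of control 1 and knockout 3 had Y-linked genes near the bottom of the scale (mean of 3 genes 3.04 and 2.65, against 8.03 to 8.30 on the other 4). No batch was named, and 3 arrays a group limit the precision of every value.

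Promoters of 4 of the 6 members, Upk1a, Upk3a, Upk3b and Upk3bl, matched RefSeq's GRCm38.p6 sequences, which run from 250 bases before to 50 bases after the gene's start. Upk1b and Upk2 are named only. The adjoining pair Upk3b and Upk3bl is printed, since these neighbours on chromosome 5 gave unlike values, Upk3bl bright and lower in the knockouts and Upk3b dim in both groups. Both windows lie on the plus strand, Upk3b at chr5:136038246-136038545 and Upk3bl at chr5:136057017-136057316. Capitals mark matches, on either strand, to the forkhead core TAAACA, the grainyhead-like motif AACCNGTT, the GATA motif GATAA and the KLF motif CACCC, and no match overlaps one to another motif.
Upk3b: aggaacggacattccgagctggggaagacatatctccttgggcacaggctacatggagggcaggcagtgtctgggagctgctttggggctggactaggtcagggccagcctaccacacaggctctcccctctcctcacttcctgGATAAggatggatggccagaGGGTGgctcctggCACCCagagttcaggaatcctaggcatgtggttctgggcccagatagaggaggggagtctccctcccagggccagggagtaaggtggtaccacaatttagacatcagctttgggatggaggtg
Upk3bl: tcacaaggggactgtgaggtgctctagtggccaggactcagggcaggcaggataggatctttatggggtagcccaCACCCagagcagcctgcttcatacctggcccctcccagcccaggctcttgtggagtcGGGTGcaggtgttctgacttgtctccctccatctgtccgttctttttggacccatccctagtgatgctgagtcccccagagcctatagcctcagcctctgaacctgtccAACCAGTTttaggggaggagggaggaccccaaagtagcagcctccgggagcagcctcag

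The forkhead core TAAACA was found in none of the 4 windows, and in 13.4% of all 32851 promoter windows of this length. A single match to the grainyhead-like motif, AACCAGTT, lies 9 bases before the start of Upk3bl, and 2.09% of all windows hold that motif. GATAA occurs once in Upk3b and once in Upk3a, against 25.4% of all windows. CACCC occurs 2 times each in Upk1a, Upk3b and Upk3bl and not in Upk3a, against 57.5% of all windows. These are matches of letters in short windows. They show no binding, and a missing match says nothing of the factor.

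In the thyroid lobes, 3 uroplakins read lower on every knockout array than on any control array. They are Upk1b, Upk3bl and Upk2. The means differed 4.80-fold for Upk1b and 4.12-fold for Upk3bl. For Upk2, whose knockout values are near background, no fold is given. The remaining 3, Upk1a, Upk3a and Upk3b, lay near the bottom of the array's scale in both groups, with groups that overlapped. None of the 6 passed the limma threshold over all probe sets, though Upk3bl came close at an adjusted p of 0.0525. With an unadjusted p under 0.05 the count was 3 of 6, all lower. Over all probe sets 6.13% were lower at that p, and 8.78% had all 3 knockouts below all 3 controls. Among probe sets above the median level that last share was 10.5%. Since the family was picked on this contrast, nothing is read from its counts against these shares.

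**Figure D1:**
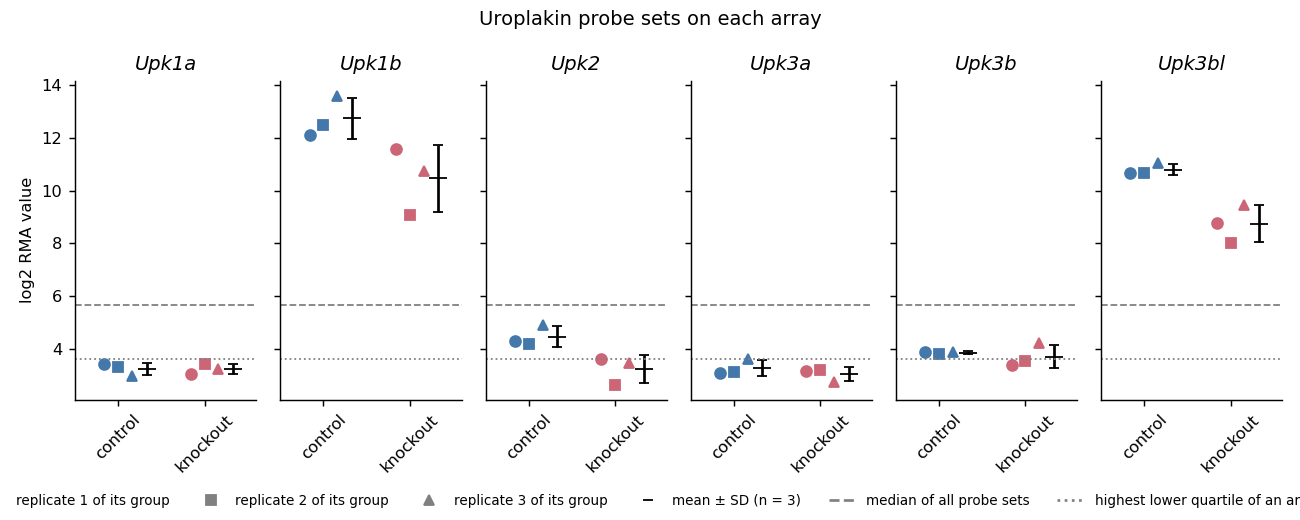
Log2 value of each uroplakin on each array (vertical axis) for 3 Cre control arrays in blue and 3 knockout arrays in red, 1 panel a gene; marker shapes give the replicate number within its group, and bars give the mean ± SD. Only Upk1b and Upk3bl stand above the median of all probe sets (5.67, dashed), and their knockout values, like those of Upk2, lie wholly below the control values.

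Of the uroplakin tetraspanins, Upk1b had signal well above the array median. Controls 1 to 3 gave 12.13, 12.48 and 13.61, and knockouts 1 to 3 gave 11.58, 9.09 and 10.76. The groups do not overlap, with 0.55 log2 units between the lowest control and the highest knockout, but knockout 2 is far lower than the other knockouts and control 3 is the highest control. The means were 12.74 ± 0.77 and 10.48 ± 1.27 (SD, n = 3 each), a difference of -2.26 (SE 0.60, 95% interval -3.64 to -0.89, limma adjusted p = 0.163). Of all probe sets, 0.063% had a more negative difference. Without knockout 2 the difference was -1.57, so the size moves with that animal. The sign could not change when 1 array was left out, since the groups do not overlap. Upk1b stood between the 93.2nd and 96.5th percentile of the control arrays and between the 77.1st and 90.9th of the knockout arrays. It was therefore well within the measured range in both groups.

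Upk1a, the other uroplakin tetraspanin, gave little signal. The control arrays gave 3.42, 3.32 and 2.96, and the knockout arrays gave 3.05, 3.42 and 3.24. The groups cover the same range, and the means were 3.23 ± 0.24 and 3.24 ± 0.19 (SD, n = 3 each), with a 95% interval of the difference from -0.46 to 0.47. All 6 values fell between the 10.3rd and 22.9th percentile of their arrays, where signal cannot be told from background and a change could not be seen.

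Upk2, the partner of Upk1a, lay under the array median. Values were 4.30, 4.17 and 4.90 for controls, against 3.60, 2.62 and 3.45 for knockouts. Again the groups do not overlap, and again control 3 was the highest array and knockout 2 the lowest. The means were 4.46 ± 0.39 and 3.22 ± 0.53 (SD, n = 3 each), a difference of -1.23 (SE 0.30, 95% interval -1.93 to -0.54, limma adjusted p = 0.144). Controls stood between the 35.3rd and 42.9th percentile and knockouts between the 3.5th and 27.0th, so the knockout level is at the background of the array. The size of the Upk2 difference may be limited by that floor.

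Upk3a, a partner of Upk1b in the bladder plaque, had control values of 3.09, 3.11 and 3.62 and knockout values of 3.16, 3.21 and 2.72. Its groups overlap, and all 6 values were at or below the 26.0th percentile. The difference was -0.24 (95% interval -0.76 to 0.28, limma adjusted p = 0.724), and a change at this level could be missed. Upk3b, the other partner of Upk1b, had control values of 3.89, 3.80 and 3.87 and knockout values of 3.39, 3.52 and 4.20. Knockouts lay on both sides of the tight controls. The difference of Upk3b was -0.15 (95% interval -0.69 to 0.39, limma adjusted p = 0.852), and its values stood between the 22.7th and 35.8th percentile.

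Upk3bl, named for its likeness to Upk3b, also had signal above the array median in both groups. Its 3 control values were 10.67, 10.68 and 11.03, and its 3 knockout values were 8.79, 8.02 and 9.44. The groups were further apart than for any other member, with 1.23 log2 units between the lowest control and the highest knockout. Control 3 was again the highest array and knockout 2 the lowest. The means were 10.79 ± 0.21 and 8.75 ± 0.71 (SD, n = 3 each), a difference of -2.04 (SE 0.33, 95% interval -2.80 to -1.29). By limma p, Upk3bl ranked 81st of the 22206 probe sets, just outside the threshold. The adjusted p was below 0.05 under 7 of 13 other settings, between 0.0262 and 0.0483. Under the other 6 it was not, and it reached 0.412 with an ordinary t statistic. Those 6 include the mean over a gene's probe sets, which with 1 probe set repeats the main fit. The adjusted p lay between 0.0617 and 0.158 when 1 array was left out. Its values lay between the 86.8th and 88.7th percentile in controls and between the 69.0th and 79.5th in knockouts.

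**Figure D2:**
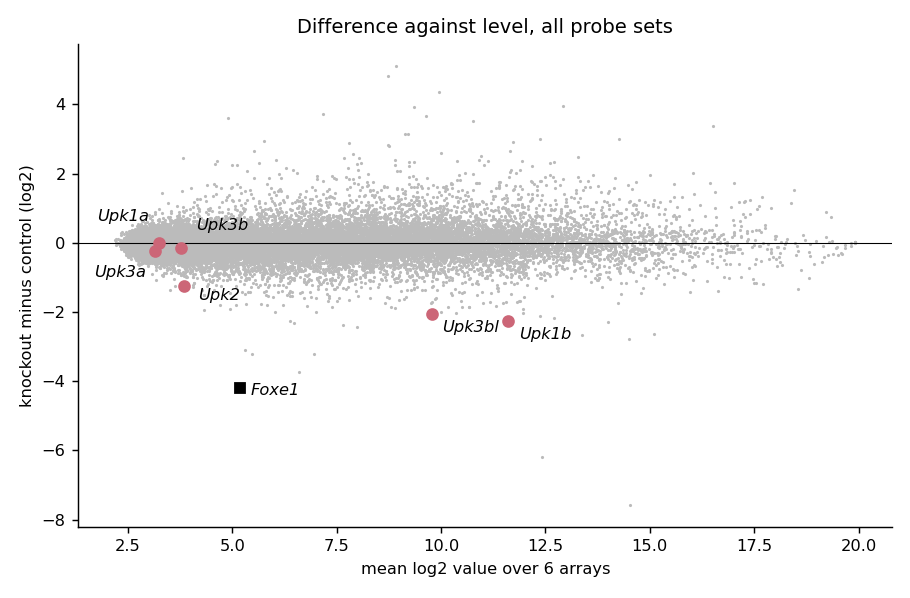
Difference of means, knockout minus control (vertical axis, log2), against the mean log2 value over 6 arrays (horizontal axis) for all 22206 probe sets in grey, with the uroplakins in red and Foxe1 as a black square. Upk1b (-2.26) and Upk3bl (-2.04) lie at the lower edge among bright probe sets and Upk2 (-1.23) at the lower edge among dim ones, while Upk1a, Upk3a and Upk3b lie near 0 at the left.

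**Figure D3:**
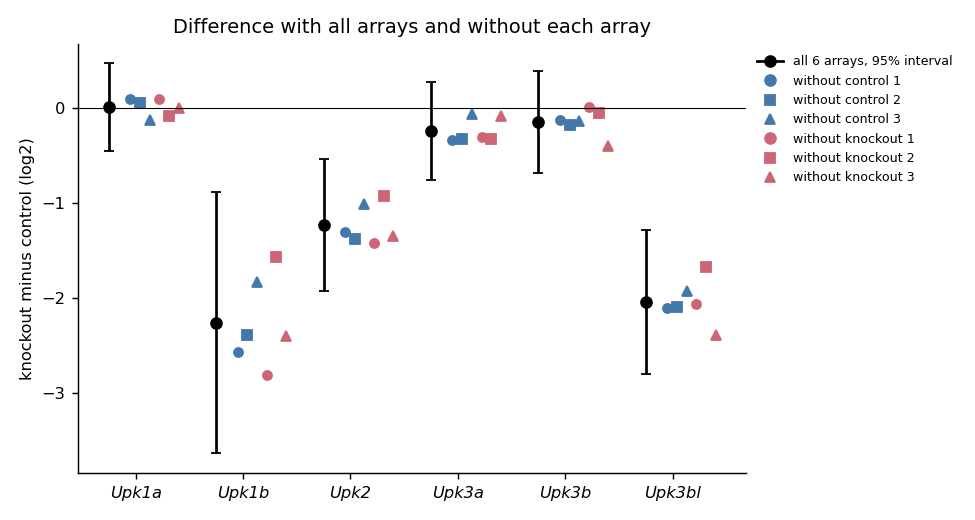
Knockout minus control difference (vertical axis, log2) of each uroplakin with all 6 arrays (black, with the 95% interval from limma) and with each array left out in turn (blue for controls, red for knockouts). The differences of Upk1b, Upk2 and Upk3bl are smallest in size without knockout 2, at -1.57, -0.93 and -1.68. They stay below 0 in all 6 such fits, as they must for groups that do not overlap.

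The 3 members whose groups do not overlap also ranked the arrays alike in part. Control 3 was the highest array and knockout 2 the lowest for all 3, while the other arrays changed places. Over the 6 arrays Pearson's r was 0.98 between Upk1b and Upk2, 0.95 between Upk2 and Upk3bl and 0.90 between Upk1b and Upk3bl. After each group's mean was subtracted, r was 0.96, 0.79 and 0.71. Values of that size were not particular to these 3 members. Upk1a, at background, then had r of -0.92 with Upk1b and -0.89 with Upk2, and Upk3b had 0.73 with Upk3bl. These 6 points share their arrays and tissue pieces, and the values are a description without a test.

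Genes with the most similar pattern were sought among 3867 or 3868 other probe sets with 1 symbol, a mean above the median and a span of at least 1 log2 unit. For Upk1b they were Car5b, a mitochondrial carbonic anhydrase (r = 0.998 over the 6 arrays), Usp18, an interferon-induced protease that removes ISG15 (r = 0.993), and Itgam, an integrin of myeloid cells (r = 0.982). For Upk2 they were the fibroblast growth factor receptor Fgfr1 (r = 0.989), the transglutaminase Tgm2 (r = 0.988) and again Usp18 (r = 0.984). For Upk3bl they were Tmem231, of the ciliary transition zone (r = 0.993), the ketosamine kinase Fn3krp (r = 0.981) and the platelet receptor Clec1b (r = 0.980). These r values include the difference between the groups, and each was the highest found among far more candidates than arrays. All 8 of these genes had negative differences, from -1.12 for Itgam to -0.54 for Car5b, and none passed the limma threshold. The shared sign follows from the selection, since they were picked for likeness to members lower on every knockout array.

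The genes next to the 3 lower members on their chromosomes had small differences. Beside Upk1b on chromosome 16, B4galt4 differed by 0.29 and Tex55 by -0.29. Beside Upk2 on chromosome 9, Foxr1 differed by 0.30 and Bcl9l by 0.07. Upk3bl lies between Upk3b (-0.15) and Polr2j, an RNA polymerase II subunit gene, which differed by 0.28. For these 5 neighbours that are not uroplakins the limma adjusted p was 0.538 or more. The neighbours of the dim members were Zbtb32 (0.01) and Cox6b1 (-0.50) for Upk1a, Nup50 (0.28) and Fam118a (-0.50) for Upk3a, and Dtx2 (0.12) for Upk3b, with adjusted p of 0.374 or more.

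Other genes of urothelial differentiation differed in both directions, and none of the 13 measured members of that list passed the threshold. Of these, 8 were lower and 5 higher in the knockouts, with a median difference of -0.32 against -0.02 over all probe sets. Foxa1, a forkhead factor of urothelium and airway, had means of 8.41 ± 0.21 and 7.34 ± 0.21 in control and knockout lobes (SD, n = 3 each), a difference of -1.07 (limma adjusted p = 0.0737). Krt19, a keratin of simple and intermediate epithelial cells, went from a mean of 11.20 to 10.20 (adjusted p = 0.119). Neither gene's groups overlapped. In 5 of the 13 all knockouts lay below all controls, against 8.78% of all probe sets, and in 2 above. The list median was 0.06 without control 1 and -0.64 without control 2.

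Psca, Krt7 and Grhl3 of the same list were singled out after their values were seen. Psca, a surface antigen of urothelium and other epithelia, gave 14.06, 14.60 and 15.48 on control arrays, against 13.20, 9.69 and 13.27 on knockout arrays. As with Upk1b, knockout 2 was lowest and control 3 highest. Krt7, a keratin of simple and transitional epithelium, gave 12.98, 12.97 and 12.97 on control arrays, against 11.35, 9.68 and 11.78 on knockout arrays, again lowest in knockout 2. Their differences were -2.66 and -2.04 (limma adjusted p = 0.237 and 0.122). Grhl3, a grainyhead-like factor of terminal differentiation in urothelium and epidermis, lay the other way, with a control mean of 12.68 ± 1.02 and a knockout mean of 13.99 ± 0.38 (SD, n = 3 each; limma adjusted p = 0.271). Krt20, the keratin that marks mature umbrella cells, stood at 3.10 and 3.39, near the bottom of the scale in both groups.

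Of 11 measured genes that act in the vesicle traffic of uroplakins, to or from the cell surface, none passed the threshold. Means were higher for 7 and lower for 4, and 53.2% of all probe sets had lower means. The median difference was 0.15, and 0.06 without knockout 1 or 0.28 without control 3. Snx31, a sorting nexin that binds uroplakins on their way to degradation, had control values of 5.04, 4.68 and 4.30 and knockout values of 3.08, 3.81 and 3.48. Its groups do not overlap (difference -1.22, limma adjusted p = 0.101), but all values are below the array median. Rab27b, a small GTPase of fusiform vesicles, had the opposite sign, with means of 11.35 and 12.28 (adjusted p = 0.218). Mal, a raft protein of apical vesicle fusion named after its values were seen, had means of 14.29 and 13.21 and was lowest in knockout 2 (adjusted p = 0.28).

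**Figure D4:**
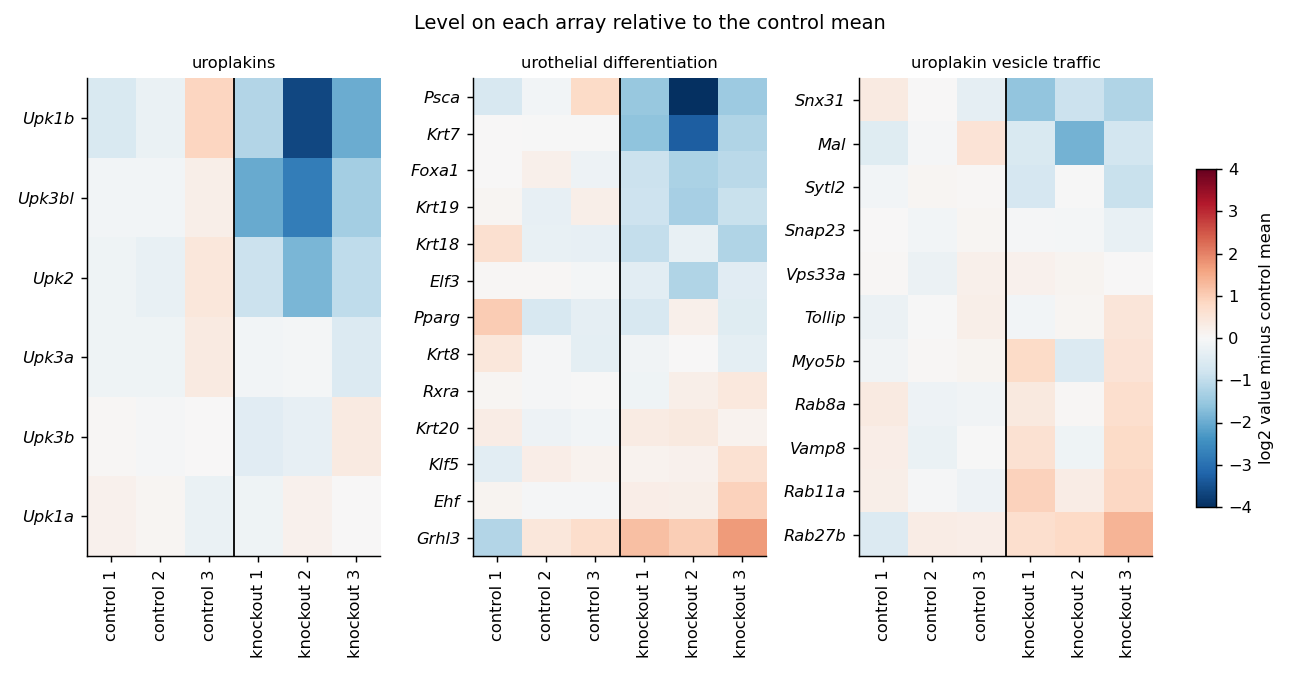
Log2 value of each gene on each array minus its control mean (colour, from -4 in blue to 4 in red) for the 6 uroplakins, 13 urothelial differentiation genes and 11 vesicle traffic genes; each column is 1 array, controls left of the line. Upk1b, Upk3bl, Upk2, Psca and Krt7 are darkest blue in knockout 2, while Grhl3 and Rab27b are red on the knockout arrays.

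The other tetraspanins give the wider family of Upk1a and Upk1b. Of 28 measured, 19 were lower and 9 higher, with none past the threshold and a median difference of -0.08. In 5 of the 28 all knockouts lay below all controls, against 8.78% of all probe sets, and in 2 above. The median was -0.15 without knockout 3, -0.06 without control 3 and -0.13 without control 1. Tspan33 differed by -0.92 (limma adjusted p = 0.098) from a level below the array median, and Tspan8, a tetraspanin of gut and airway epithelium, by -1.30 (adjusted p = 0.149). Upk1b had a more negative difference than any of the 28, whose lowest was -1.47 for Tspan6, named after its values were seen. That difference between Upk1b and the others was not tested.

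Thyroid lobes taken at dissection can hold neighbouring tissue, and in such bulk RNA fewer cells of a type and less RNA per cell cannot be told apart. Of 9 airway secretory genes 8 had lower means in the knockouts, with none past the threshold, and the list's mean level was 15.93 to 16.56 on control arrays and 15.19 to 15.31 on knockout arrays. Bpifb1, a secreted airway protein, differed by -1.32 (limma adjusted p = 0.0722) and the mucin Muc5b by -1.48 (adjusted p = 0.15), while Muc5ac (0.16) read near the bottom of the scale on all arrays. Of 9 ciliated cell genes 8 were lower and none passed (6.58 to 7.63 against 6.06 to 6.34), among them Hydin at -1.55 and Tppp3 at -0.70, while Tekt1 was at 0.85. In 6 of the 9 airway secretory and 4 of the 9 ciliated genes all knockouts lay below all controls, against 8.78% of all probe sets. In neither list did a gene have all knockouts above all controls. The median difference of the airway secretory list was -1.17, and -0.72 without control 1, and that of the ciliated list was -0.70, and -0.45 without control 1. The part of airway tissue in the uroplakin differences was not tested. Knockouts 1 to 3 had means of 15.19, 15.31 and 15.21 for the airway secretory list and of 6.34, 6.06 and 6.31 for the ciliated list.

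Of 11 squamous and basal epithelium genes 9 had higher and 2 lower means in the knockouts, none past the threshold, with list means of 14.17 to 14.48 in controls and 14.49 to 15.26 in knockouts. The cornified envelope genes Sprr1b and Sprr3 differed by 3.13 and 1.15 (limma adjusted p = 0.0624 and 0.0907). The keratins Krt17 and Krt14, given because they are the 2 lower members, differed by -1.89 and -0.45 (adjusted p = 0.113 and 0.649), the first with groups that did not overlap. The list median of 0.30 was 0.03 without knockout 3 and 0.17 without control 2. Mesothelial genes, relevant to Upk3b, were mostly dim: 6 of 8 lay below the median level, among them Wt1, Lrrn4 and Bnc1, and the list means were 4.90 to 5.08 in controls and 4.69 to 4.86 in knockouts. Msln, also expressed outside mesothelium, was bright, at 10.68 and 9.54 (difference -1.14, adjusted p = 0.282), and Nkain4 differed by -0.31. Of the 8, 5 were lower, 3 higher and none passed.

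Thyroid follicular genes had list means of 7.58 to 8.92 in controls, lowest in control 3, and of 9.46 to 9.96 in knockouts, lowest in knockout 2. Of 11 measured 10 were higher, and Hhex, a homeobox factor of the thyroid, rose by 2.46 (limma adjusted p = 0.0273) as the single call. All 3 measured parathyroid genes had lower means, none past the threshold and all with groups that overlapped. Pth ranged from 17.02 to 19.68 in controls and read 3.56, 18.61 and 10.06 in knockouts, and Chga from 13.15 to 17.63 against 5.85, 15.16 and 6.95. The list median was -6.19, and -3.98 without knockout 1. The parathyroid list mean was 5.95 in knockout 1, 14.77 in knockout 2 and 8.69 in knockout 3. All 10 skeletal muscle genes were lower, none past the threshold (16.67 to 16.80 against 15.42 to 16.43), with Ryr1 at -1.31 and Pvalb at -1.42. In 5 of the 10 all knockouts lay below all controls, against 8.78% of all probe sets. That count was 2 of 11 for the vesicle traffic list, 1 of 8 for the mesothelial list and 1 of 11 for the squamous and basal list. Of 4 C cell genes 2 were higher and 2 lower, none passing (6.50 to 7.35 against 6.46 to 7.01), with Sst at 0.58 and Scg2 at 0.50 but Calcb at -0.75 and Ret at -0.59. The part of these tissues in the uroplakin values was not tested either.

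**Figure D5:**
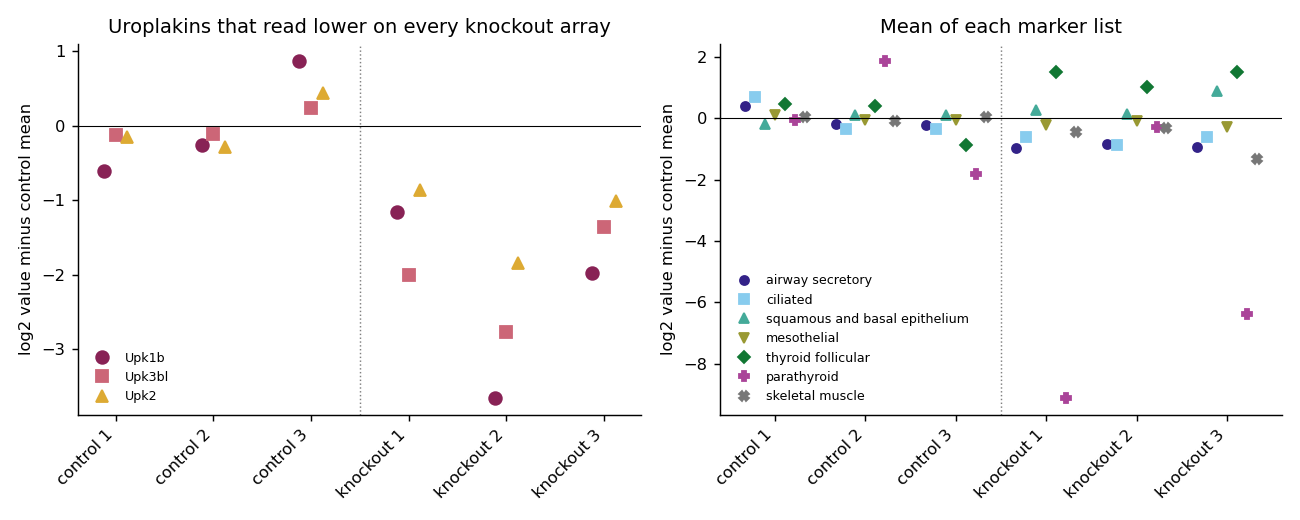
Log2 value minus the control mean (vertical axis) on each array (horizontal axis) for Upk1b, Upk3bl and Upk2 (left) and for the mean of each of 7 marker lists (right). On the left all 3 genes are lowest in knockout 2. On the right the ciliated mean is lowest in knockout 2, the parathyroid and airway secretory means in knockout 1, and the skeletal muscle and mesothelial means in knockout 3. The airway secretory, ciliated, skeletal muscle and mesothelial means are lower on all 3 knockout arrays than on any control array. The thyroid follicular and the squamous and basal means are higher on all 3, and the parathyroid means overlap.

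Control 1 and knockout 3, the arrays with little Y-linked signal, were neither the highest nor the lowest of the 6 for Upk1b, Upk2 or Upk3bl. Control 1 was the lowest control for Upk1b and Upk3bl, and knockout 3 the highest knockout for Upk3bl. For all 3 genes control 1 lay below its group's mean and knockout 3 above its group's mean. Leaving both out must therefore enlarge each difference. Without both of them the differences were -2.71 for Upk1b, -1.43 for Upk2 and -2.45 for Upk3bl, each larger in size than with all arrays. The limma adjusted p also rose, to 0.321, 0.301 and 0.0994, from 0.163, 0.144 and 0.0525. This fit has fewer arrays and was chosen after seeing the data.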

How the data were processed

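RNA of 1 thyroid lobe per animal, with an integrity number of at least 7, was labelled from 250 ng and hybridised to 1 Affymetrix array each, per the labels' protocols. The deposited values are on the log2 scale, 1 per probe set. Per the submitters' processing notes the authors used RMA and Affymetrix Expression Console; settings, annotation and build were not given in the sources used here. RMA ordinarily equalises the arrays, which removes a change shared by most transcripts and compresses differences at both ends of the scale. No detection calls were used.

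Of 22206 probe sets, 19572 carry 1 symbol in the platform annotation, 0 several and 2634 none, and all 19572 matched RefSeq. All probe sets were tested as deposited with limma 3.58.1 in R 4.3.3 (lmFit, eBayes), two-sided. P-values were adjusted by Benjamini-Hochberg across every probe set, with calls under 0.05, and each difference is knockout minus control. A run on simulated data checked the fit. Separate animals are the replicates, which the labels number within each group. Figures were drawn with matplotlib 3.10.9.

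The members and the 12 gene lists (123 of 133 genes measured, brightest probe set) were chosen with earlier results of these data known. Named genes are the uroplakins, Foxe1, up to 4 members of each list past the threshold or else the 2 with the smallest p, the 3 genes most like each uroplakin that spans at least 1 log2 unit, and the nearest gene with a probe set on each side. Genes named outside this rule are said to be so, apart from Tg, Krt20, Muc5ac, Wt1, Lrrn4 and Bnc1, given as levels, and Tekt1, Calcb and Ret, given because they run against the named members of their lists. Other settings tried were median centring, renewed quantile normalization, a variance trend (plain or robust), an ordinary t statistic, array weights, 2 filters on dim probe sets, probe sets with 1 symbol, a replicate block, Y-linked signal as a covariate, a gene's mean over its probe sets, and each array left out.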

Additional observations from a re-analysis of the deposited data

How the results depend on the processing

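The count of uroplakins past the threshold, 0 of 6 by limma with 3 at an unadjusted p under 0.05, was 1 of those tested under 7 settings, each time Upk3bl. Its difference and adjusted p were -2.09 and 0.0483 with renewed quantile normalization, -2.04 and 0.0408 with a variance trend, -2.04 and 0.0344 with a robust trend, -2.20 and 0.0262 with array weights, -2.04 and 0.0468 among probe sets above the median level, -2.04 and 0.0467 among those above the lower quartile on at least 3 arrays, and -2.04 and 0.0476 with the replicate block. Same-numbered arrays did not deviate together over the probe sets as a whole (correlations of -0.01, 0.08 and 0.02). This cannot settle whether they are paired, since a pairing could touch few genes. The numbers are used here as sample names only. Under 6 further settings Upk3bl did not pass, and its adjusted p was highest, at 0.412, with an ordinary t statistic. Among them the mean over a gene's probe sets repeats the main fit, as each uroplakin has 1 probe set. Without 1 array the count stayed at 0 of 6. Over all probe sets the count of 75 became 118 with a robust trend, 0 with an ordinary t statistic (2208 at an unadjusted p under 0.05, with 2 uroplakins among them), 2 to 43 without 1 array, and 6 without control 1 and knockout 3, an alternative chosen after seeing the data. Without 1 array the count of uroplakins wholly below the controls was 3 to 4, and it could not fall below 3. Groups that do not overlap stay apart when an array is removed. The differences then lay from -2.82 to -1.57 for Upk1b, -1.42 to -0.93 for Upk2, -2.39 to -1.68 for Upk3bl and -0.34 to -0.07 for Upk3a. They changed sign for Upk1a (-0.13 to 0.10, with -0.13 without control 3 and -0.09 without knockout 2) and for Upk3b (-0.40 to 0.0067, with 0.0067 without knockout 1), both near 0. The cause of these changes was not tested. No other setting changed a sign, but several of them leave the differences as they were and so could not. Signal near the bottom of the scale limits what can be said of Upk1a, Upk2, Upk3a and Upk3b.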
